A study of Homo sapiens with 12 samples.

Results

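The miRNAs described here are the listed arms of 3 hairpins that each lie in an intron of a protein-coding gene: hsa-miR-378a (host PPARGC1B), hsa-miR-140 (host WWP2) and hsa-miR-151a (host PTK2). They were found by name in both deposited tables, as hsa-miR-378a-3p, hsa-miR-140-3p and hsa-miR-151a-3p. The 3p arm of each was listed, so that 3 of the 153 mature miRNAs of the series are described, all 3 of them in the parental table (137 miRNAs) and in the CSC-like table (114 miRNAs). The 5p arm of none of them was listed, and no ratio between arms could be formed.

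The small RNA came from exosomes, vesicles that cells release into the medium, of MDA-MB-231, an established human breast adenocarcinoma line. The 12 libraries form 4 groups of 3: sorted CSC-like cells (like cancer stem cells) treated with 56 µM cisplatin for 48 h, sorted CSC-like cells left untreated, parental cells treated with the same dose and time of cisplatin, and parental cells left untreated. All cells were kept in exosome-depleted serum. The labels do not give the markers used for sorting, nor whether replicates were separate cultures, so the p-values reflect how much these samples vary, and that variation may be technical. Cisplatin is a platinum compound that crosslinks DNA.

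Listed counts ranged from 429 to 1877 per treated CSC-like library, from 1526 to 2522 per untreated CSC-like library, from 3552 to 6622 per treated parental library and from 2648 to 4005 per untreated parental library. Replicates 2 and 3 of the treated CSC-like group agreed within sampling noise, with a chi-square of 1.18 times its degrees of freedom, while the other pairs of that group gave 10.1 and 8.08. They were counted as 1 sample, which leaves 2 samples there. Their counts were summed for edgeR and DESeq2, and their shares were averaged for group means and permutation tests. Treated parental replicates 2 and 3 were also close, at 1.48 times the degrees of freedom (chi-square test, p = 0.012). Their pairs with replicate 1 gave 16.1 and 16.4. They differed by slightly more than sampling noise and were kept as separate samples, so the 3 treated parental samples may be less independent than their number. The untreated parental libraries stood apart from each other: the let-7 family made up 0.851%, 28.0% and 14.6% of their counts, and their log-scale shares correlated at 0.561 to 0.712, against 0.793 to 0.873 among treated parental libraries. Of 9 blood and serum miRNAs 3 were listed in each table, with summed shares of 0.0635% to 0.466% in treated CSC-like, 0.119% to 0.184% in untreated CSC-like, 0.0302% to 0.366% in treated parental and 0 to 0.284% in untreated parental libraries. The other 6 in each table, miR-223-3p, miR-142-3p and miR-150-5p among them, were not listed, and neither was any of 5 muscle miRNAs. The part of serum RNA in the values below was not tested.

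An intronic miRNA is usually transcribed together with its host gene and cut from that transcript by Drosha and then Dicer, after which 1 arm of the hairpin is mostly kept by an Argonaute protein. PPARGC1B encodes the coactivator PGC-1β, which drives genes of mitochondrial respiration, and in mice the miR-378a hairpin is known for acting on energy metabolism. WWP2 encodes an E3 ubiquitin ligase, and miR-140 is best known from cartilage, where it is abundant in mice and humans. PTK2 encodes focal adhesion kinase, which relays integrin signals in migrating cells, and the miR-151a hairpin has been linked to tumour cell migration together with its host. Which of its arms acts was not tested here. Host transcripts were not measured in these libraries.

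The mature sequences of 2 members are shown because the seed, bases 2 to 8 from the 5′ end (in capitals), sets which mRNAs a miRNA pairs with, and because a near-identical relative of the first was also listed. They are from RefSeq (GRCh38.p14) and equal the sequences deposited with the counts. hsa-miR-378a-3p is at chr5:149732867-149732888 on the plus strand, hsa-miR-378i at chr22:41923271-41923291 on the minus strand and hsa-miR-140-3p at chr16:69933142-69933162 on the plus strand:
hsa-miR-378a-3p: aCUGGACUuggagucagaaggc
hsa-miR-378i: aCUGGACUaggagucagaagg
hsa-miR-140-3p: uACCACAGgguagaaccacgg
miR-378a-3p and miR-378i share the seed. With positions counted from the 5′ end of miR-378a-3p, miR-378i differs by U9A and is 1 base shorter at the 3′ end. Among the human mature RefSeq sequences searched, at least 6 others carry the seed of miR-378a-3p (miR-378b, miR-378c, miR-378f, miR-378h, miR-378i and miR-422a). This list may not be complete. Of the relatives of miR-378a-3p only miR-378i was listed, in the CSC-like table. No other sequence searched carries the seed of miR-140-3p. The number of mismatches allowed in counting is not given in the sources used here, so reads of miR-378a-3p and of its relatives may have been split or merged.

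The hairpins are shown to place the counted arm, in capitals, beside the arm that was not listed:
MIR378A: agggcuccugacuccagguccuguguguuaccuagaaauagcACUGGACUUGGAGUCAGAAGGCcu
MIR140: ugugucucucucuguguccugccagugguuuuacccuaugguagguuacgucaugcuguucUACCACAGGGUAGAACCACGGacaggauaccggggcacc
In both, the listed arm is the 3′ arm of the hairpin. Of the hairpins with a named arm, 35 of 92 in the CSC-like table and 40 of 104 in the parental table had only the 3p arm listed, and 4 and 12 had both arms. No miRNA was listed with 0 counts over a whole group. Arms with counts in 1 group alone may thus have been left out of the tables, and the missing arms are not shown to be absent from these exosomes.

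In GENCODE release 29 (GRCh38), MIR378A lies on the plus strand of chromosome 5 from 149732825 to 149732890, within intron 1 of 11 of a coding PPARGC1B transcript. MIR140 lies on the plus strand of chromosome 16 from 69933081 to 69933180, within intron 16 of 23 of a coding WWP2 transcript. MIR151A, on chromosome 8 from 140732564 to 140732653 (minus strand), lies within intron 22 of 31 of a coding PTK2 transcript. Each hairpin is on the strand of its host and lies between exons of that transcript. No other coding gene holds any of these hairpins in an intron on the same strand. The introns differ in length, 90012 bases in PPARGC1B, 2079 bases in WWP2 and 17541 bases in PTK2.

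The 3 miRNAs differed widely in level. miR-151a-3p was the most abundant, with 657 counts over the 12 libraries and a share of listed counts between 0.466% and 4.12% (median 1.23%). It ranked between place 5 and place 20 within single libraries. miR-378a-3p had 185 counts, present in every library, and a share between 0.0250% and 1.04% (median 0.455%). miR-140-3p had 12 counts in all, at most 4 in a library, and none in 6 of the 12 libraries. Together they made up 0.932% to 1.33% of counts in treated CSC-like, 1.31% to 1.83% in untreated CSC-like, 2.00% to 5.23% in treated parental and 1.51% to 2.58% in untreated parental libraries. In exosome pools, as in any bulk sample, fewer cells or vesicles of one kind and less RNA in each cannot be told apart.

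**Figure D1:**
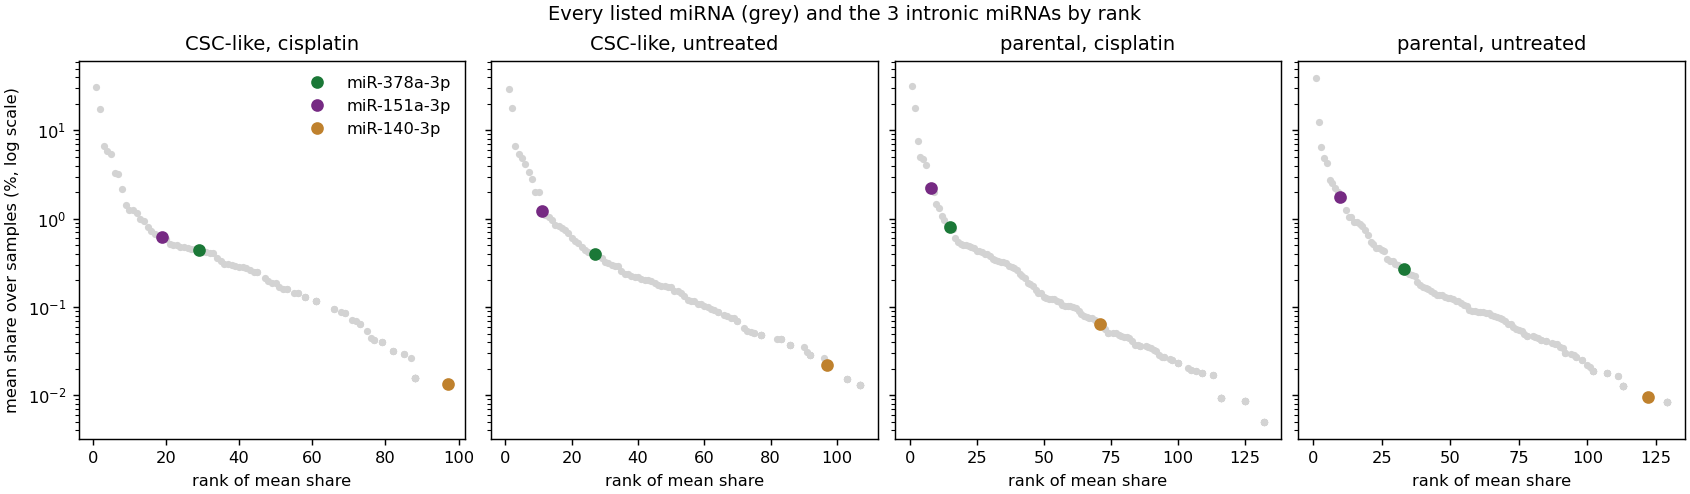
Mean share of listed counts (log scale, y axis) against rank (x axis) for every listed miRNA in each group, with n = 2 samples for treated CSC-like and n = 3 for the other groups. miR-151a-3p ranked 19 and 11 of 114 in treated and untreated CSC-like and 8 and 10 of 137 in treated and untreated parental exosomes, miR-378a-3p ranked 29, 27, 15 and 33 in the same groups, and miR-140-3p 97, 97, 71 and 122.

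The first comparison asked which of these miRNAs differed after cisplatin in parental exosomes. The shares of miR-378a-3p and miR-140-3p were higher in every treated than in every untreated library, and neither difference passed the test across all miRNAs. miR-151a-3p overlapped between the groups. Groups without overlap and higher after treatment were seen for 2 of the 3 members, beside 8.03% of the 137 listed miRNAs and 16.2% of the 37 that passed the count filter. The share with lower, non-overlapping values was 1.46% of the 137. With 3 libraries against 3, the smallest p of a two-sided exact permutation test is 0.1.

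hsa-miR-378a-3p, the PPARGC1B-hosted miRNA, was counted 69, 21 and 30 times in treated parental libraries and 10, 13 and 1 times in untreated ones. These counts correspond to 1.04%, 0.591% and 0.765% of listed counts after cisplatin, against 0.284%, 0.491% and 0.0250% without it. The groups do not overlap, but the lowest treated and the highest untreated library are close, and their exact 95% intervals (0.366 to 0.902 and 0.262 to 0.838) overlap widely. Untreated replicate 3 stood lowest, and its interval (0.000632 to 0.139) lies below those of untreated replicate 2 and of every treated library. Summed over libraries, 120 counts among 14098 stood against 24 among 10180, a share ratio of 3.61. Its exact 95% interval of 2.31 to 5.85 covers counting error only, not the spread between libraries. The mean share was 0.799% ± 0.227 in treated and 0.266% ± 0.233 in untreated exosomes (SD, n = 3 each). The exact permutation p was 0.1, the lowest it can be, and 1 after adjustment over 137 miRNAs.

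Treated over untreated, miR-378a-3p had a fitted log2 ratio of 1.22 by edgeR's quasi-likelihood test (SE 0.72, unadjusted p = 0.105, adjusted p = 0.324 over 37 miRNAs). The call depends on 1 library: without untreated parental replicate 2 the log2 fold change was 2.07 (SE 0.72) and miR-378a-3p passed (adjusted p = 0.0456), as did 18.6% of the 43 miRNAs tested then. Without untreated parental replicate 3, which held a single count, the log2 fold change was 0.59 (adjusted p = 0.955, SE 0.75). Without untreated parental replicate 1 it was 1.08 (adjusted p = 0.623, SE 0.93). The authors' deposited table gives miR-378a-3p a signed fold, treated over untreated, of 3.10 and an unadjusted p of 0.00861, which becomes 0.148 when adjusted over the 137 miRNAs of that table.

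hsa-miR-140-3p, the WWP2-hosted miRNA, was counted 4, 2 and 3 times in treated parental libraries and 1, 0 and 0 times in untreated ones. Its share was 0.0604%, 0.0563% and 0.0765% after cisplatin and 0.0284%, 0 and 0 without it. The groups do not overlap, yet where no read was found the share may still reach 0.113% in untreated replicate 2 and 0.0749% in replicate 3 (3 counts of the total), limits near or above the treated values, so at this depth a difference was not detectable. Summed over libraries, 9 counts among 14098 stood against 1 among 10180, a share ratio of 6.50 with an exact 95% interval of 0.901 to 285 that covers counting error only. miR-140-3p was under the count filter of edgeR, and without the filter its log2 fold change of 2.24 (adjusted p = 0.935 over 137 miRNAs, SE 1.62) depends on the prior count. With any 1 library left out it lay between 1.53 and 4.50. In the authors' deposited table its signed fold was 6.50 and its p 0.0212, or 0.307 after adjustment.

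hsa-miR-151a-3p, the PTK2-hosted miRNA, was counted 273, 48 and 48 times in treated parental libraries and 80, 27 and 79 times in untreated ones. Its share was 4.12%, 1.35% and 1.22% after cisplatin and 2.27%, 1.02% and 1.97% without it. A single treated library, replicate 1, was higher than all others, and its interval (3.66 to 4.63) lies above those of the remaining treated libraries (0.998 to 1.79 and 0.903 to 1.62). The mean share was 2.23% ± 1.64 in treated and 1.75% ± 0.652 in untreated exosomes (SD, n = 3 each; exact permutation p = 0.8). The log2 fold change was -0.03 (adjusted p = 0.980, edgeR, SE 1.06), and its sign turns with library totals (0.35) or DESeq2 size factors (0.09) in place of TMM normalization. Without treated parental replicate 1 the log2 fold change was -0.79 and the difference in mean share, 0.479 percentage points with all libraries, was -0.466.

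**Figure D2:**
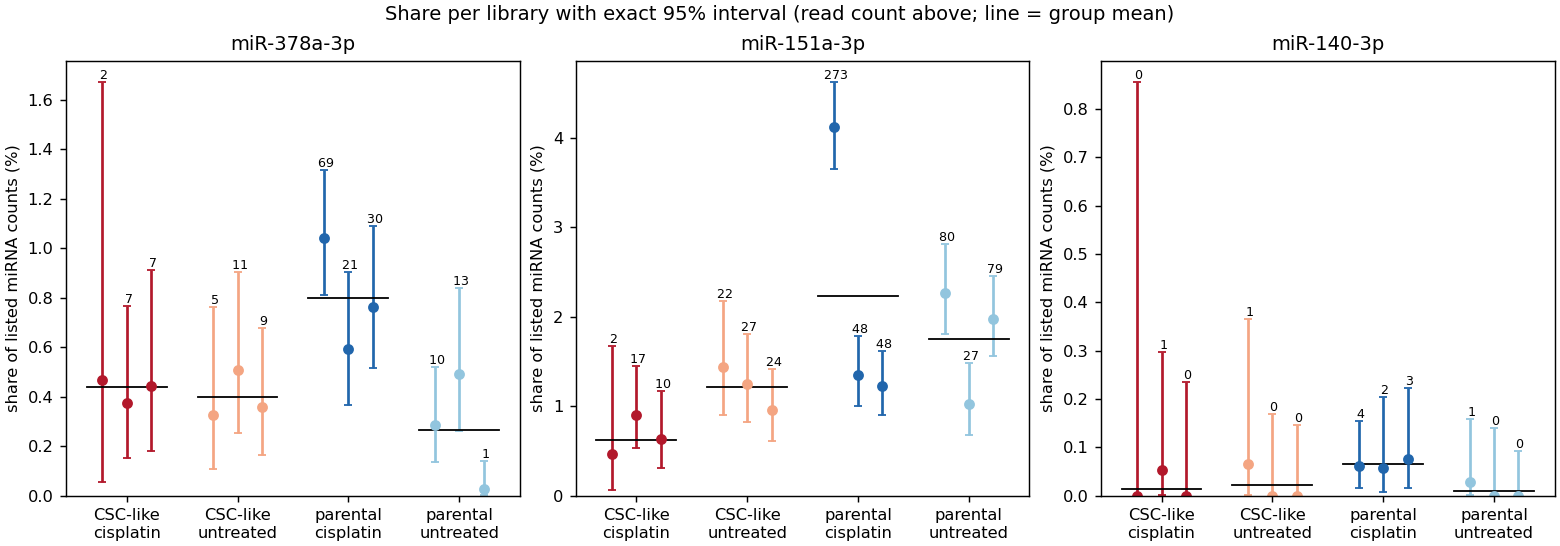
Share of listed counts (y axis, %) of miR-378a-3p, miR-151a-3p and miR-140-3p in each library of the 4 groups (x axis), with exact 95% intervals, the read count above each point and the group mean as a line. Treated parental libraries lie at 0.591% to 1.04% for miR-378a-3p, above all untreated parental ones, while for miR-151a-3p treated parental replicate 1 stands alone at 4.12%.

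Neither tested member was called in parental exosomes by edgeR or DESeq2, beside 5.41% of the 37 miRNAs tested with edgeR, and 0 had an unadjusted p under 0.05 with either tool. Over the 37 miRNAs the median log2 fold change was -0.27 with TMM, against 0.01 with library totals. With library totals the value for miR-378a-3p was 1.62 (adjusted p = 0.235, edgeR, SE 0.73).

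The second comparison asked the same in CSC-like exosomes. miR-151a-3p was lower in every treated than in every untreated library, miR-378a-3p and miR-140-3p overlapped, and no member passed the test. Non-overlapping lower shares were seen for 1 of the 3 members, beside 7.02% of the 114 listed miRNAs and 6.9% of the 29 that passed the count filter. Non-overlapping higher shares were seen for 5.26% of the 114 and 6.9% of the 29.

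miR-151a-3p was counted 2, 17 and 10 times in treated and 22, 27 and 24 times in untreated CSC-like libraries. Its share was 0.466%, 0.906% and 0.635% after cisplatin and 1.44%, 1.24% and 0.952% without it. The highest treated and the lowest untreated library are nearly equal, and treated replicate 1, with 429 counts in all, has an interval of 0.0565 to 1.67 that spans every untreated value. The mean share was 0.618% ± 0.215 (SD, n = 2) in treated and 1.21% ± 0.246 (SD, n = 3) in untreated exosomes (exact permutation p = 0.2, where 0.1 is the smallest possible). The log2 fold change was -0.87 (adjusted p = 0.990 over 29 miRNAs, edgeR, SE 0.89), and -0.18 without treated CSC-like replicate 1. The authors' deposited table gives a signed fold of -1.63, where the minus marks a fall, and p = 0.0682 (0.662 after adjustment).

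miR-378a-3p was counted 2, 7 and 7 times in treated and 5, 11 and 9 times in untreated CSC-like libraries. Its share was 0.466%, 0.373% and 0.444% after cisplatin, against 0.328%, 0.506% and 0.357% without it. Treated and untreated values interleave. The mean was 0.437% ± 0.0407 (SD, n = 2) in treated and 0.397% ± 0.0959 (SD, n = 3) in untreated exosomes, with a log2 fold change of 0.01 (adjusted p = 0.990, edgeR, SE 1.02). Summed counts gave a share ratio of 1.03 with an exact interval of 0.512 to 2.00, so counting error alone leaves room for a change in either direction of about that size.

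miR-140-3p was found once in treated CSC-like replicate 2 and once in untreated CSC-like replicate 1, and not in the other 4 libraries. Depending on their depth, shares of 0.119% to 0.699% would still be compatible with finding no read in those libraries. Both groups are under the floor of 3 counts, so no fold is read for it there. miR-378i, the relative of miR-378a-3p, was counted 0, 3 and 2 times in treated and 0, 2 and 1 times in untreated CSC-like libraries. Its treated and untreated shares overlap. Neither tested member was called in CSC-like exosomes by edgeR or DESeq2 and 0 had an unadjusted p under 0.05, beside 3.45% of the 29 miRNAs called with edgeR.

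The third comparison set treated CSC-like against treated parental exosomes, on the 98 miRNAs in both tables. Shares and library sizes still refer to all miRNAs listed for each population (114 CSC-like, 137 parental), so the totals cover different lists. The shares of miR-378a-3p and miR-151a-3p were lower in every treated CSC-like than in every treated parental library, and neither passed the test (exact permutation p = 0.2 and 0.3, where 0.1 is the smallest possible). In treated CSC-like replicate 1 each had only 2 counts, a share of 0.466% that lies under the floor of 3 counts (0.699%). The shares of miR-140-3p were also lower, but with 3 counts as the floor the treated CSC-like libraries could not resolve shares under 0.699%, 0.160% and 0.190%, all above the treated parental shares of 0.0563% to 0.0765%, so a difference was not detectable at this depth. Non-overlapping lower shares were seen for 11.2% of the 98 miRNAs and 14.3% of the 42 that passed the count filter, and higher ones for 8.16% and 9.52%. These libraries also differ in depth, with 429 to 1877 listed counts in treated CSC-like and 3552 to 6622 in treated parental ones, and the part of depth in the result was not tested.

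For miR-151a-3p the treated CSC-like shares of 0.466%, 0.906% and 0.635% lie below the treated parental shares of 4.12%, 1.35% and 1.22%. The means were 0.618% ± 0.215 (SD, n = 2) in treated CSC-like and 2.23% ± 1.64 (SD, n = 3) in treated parental exosomes, and the log2 fold change, CSC-like over parental, was -1.48 (adjusted p = 0.742 over 42 miRNAs, edgeR, SE 0.91). Without treated parental replicate 1 it was -0.83 (adjusted p = 0.581), and the difference in mean share, -1.61 percentage points with all libraries, was -0.669. For miR-378a-3p the means were 0.437% ± 0.0407 (SD, n = 2) in treated CSC-like and 0.799% ± 0.227 (SD, n = 3) in treated parental exosomes, with a log2 fold change of -0.72 (adjusted p = 0.848, edgeR, SE 0.69). In treated CSC-like replicate 1 both miRNAs have an interval of 0.0565 to 1.67. It spans all treated parental values of miR-378a-3p, and the 1.35% and 1.22% of miR-151a-3p. miR-140-3p had 1 count among 3881 in treated CSC-like and 9 among 14098 in treated parental libraries, a share ratio of 0.404 with an exact interval of 0.00921 to 2.91. Summed counts gave ratios of 0.285 (0.189 to 0.417) for miR-151a-3p and 0.484 (0.268 to 0.819) for miR-378a-3p. These intervals cover counting error only, not the spread between libraries. Of the 2 members tested, 0 were called and 0 had an unadjusted p under 0.05 with edgeR or DESeq2, beside 2.38% of 42 miRNAs called with edgeR. Without the count filter miR-151a-3p had an unadjusted p of 0.0269 (log2 fold change -1.95, adjusted p = 0.663 over 98 miRNAs, edgeR).

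CSC-like and parental exosomes were then compared without cisplatin. The shares of all 3 members overlapped between these groups, where 7.14% of the 98 miRNAs had non-overlapping higher and 4.08% non-overlapping lower shares (13.3% and 0 of the 30 that passed the count filter). miR-151a-3p averaged 1.21% ± 0.246 in CSC-like and 1.75% ± 0.652 in parental exosomes (SD, n = 3 each). Its fitted log2 ratio, CSC-like over parental, was -1.19 (adjusted p = 0.656 over 30 miRNAs, edgeR, SE 1.19), but -0.54 with library totals and -0.67 without the count filter. With any 1 library left out it lay between -1.32 and -0.83. miR-378a-3p averaged 0.397% ± 0.0959 in CSC-like and 0.266% ± 0.233 in parental exosomes (SD, n = 3 each; exact permutation p = 0.4). The difference in mean share of 0.131 percentage points rests on untreated parental replicate 3, which held 1 count: without it the difference was 0.00975 points, and without replicate 2 it was 0.243 points. miR-378a-3p was under the count filter in these 6 libraries, and without the filter its log2 fold change was 0.65 (adjusted p = 0.978 over 98 miRNAs, edgeR, SE 0.86), 0.11 without untreated parental replicate 3 and 1.20 without replicate 2. The only tested member was not called by edgeR or DESeq2 (0 with an unadjusted p under 0.05), beside 3.33% of 30 miRNAs called with edgeR.

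**Figure D3:**
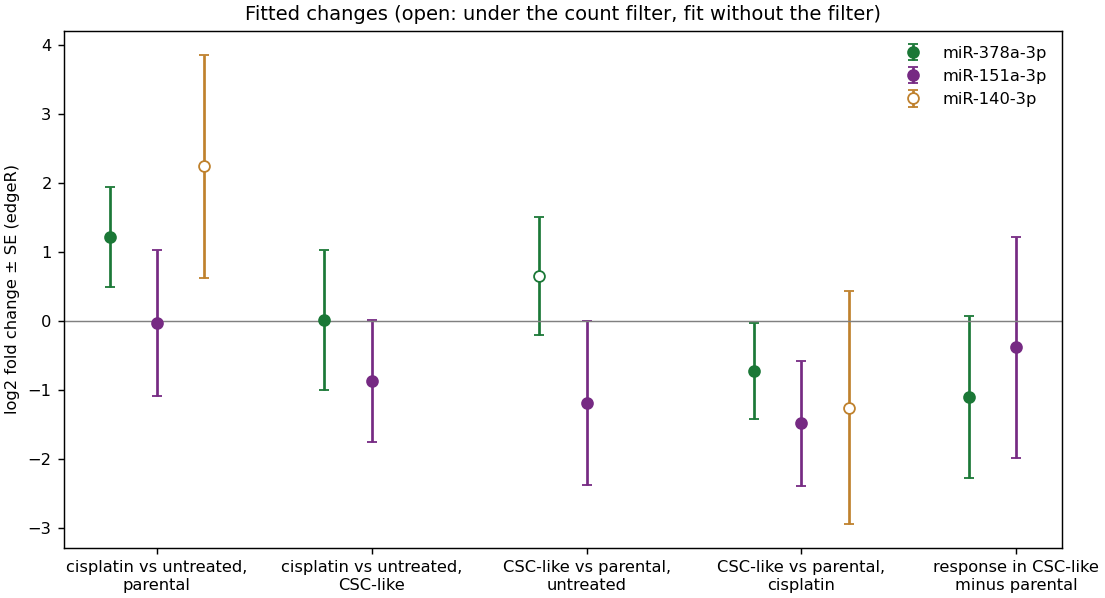
Log2 fold change ± SE from edgeR (y axis) of the 3 miRNAs in the 4 comparisons and in the difference between the cisplatin responses (x axis), leaving out miR-140-3p where both groups compared, or both CSC-like groups, had at most 3 counts. Filled points passed the count filter, open points come from the fit without it, and none passed the threshold. The largest fitted value of a tested member is the -1.48 of miR-151a-3p in treated CSC-like over treated parental exosomes.

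A model of all 4 groups tested whether the cisplatin response differed between the populations (the interaction). For miR-378a-3p, with a fitted log2 fold change of 0.01 in CSC-like and 1.22 in parental exosomes, the difference was -1.09 (adjusted p = 0.871 over 48 miRNAs, edgeR, SE 1.17). It was -0.56 without untreated parental replicate 3 and -1.90 without replicate 2. For miR-151a-3p it was -0.38 (adjusted p = 0.944, edgeR, SE 1.60), -1.21 with library totals and 0.39 without treated parental replicate 1. For neither miRNA was the response shown to differ, and 0 of the 2 had an unadjusted p under 0.05 with edgeR or DESeq2, beside 2.08% of 48 miRNAs called with edgeR. The SEs exceed 1 on the log2 scale, so differences of more than 2-fold lie within the error.

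The counts of miR-378a-3p and miR-151a-3p within a library give a comparison that does not depend on library size. This measure was chosen after seeing the data and carries no test. miR-378a-3p made up 50%, 29.2% and 41.2% of their joint counts in treated CSC-like libraries and 18.5%, 28.9% and 27.3% in untreated CSC-like libraries. It made up 20.2%, 30.4% and 38.5% in treated parental libraries and 11.1%, 32.5% and 1.25% in untreated parental libraries. All treated CSC-like values lay above all untreated CSC-like ones, by as little as 29.2% against 28.9%, and the parental groups overlapped through untreated replicate 2. miR-151a-3p was the more abundant of the pair in 11 libraries and equal in treated CSC-like replicate 1, where each had 2 counts.

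**Figure D4:**
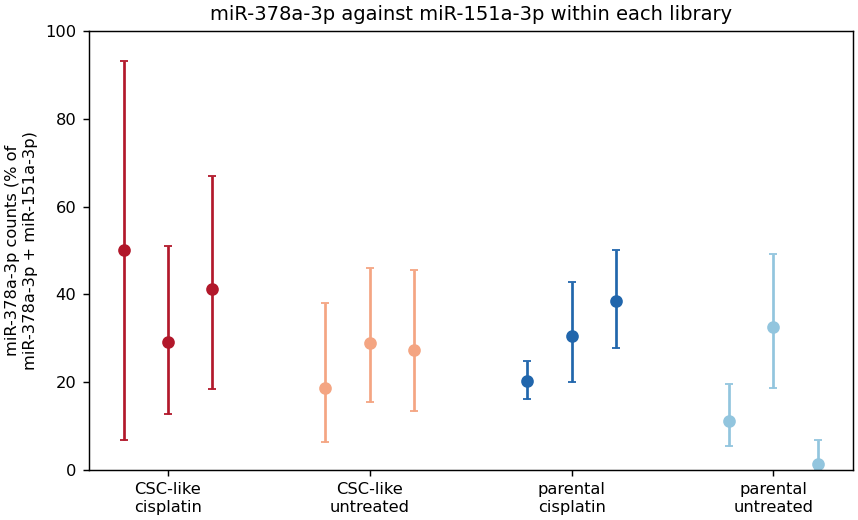
miR-378a-3p counts as a percentage of miR-378a-3p plus miR-151a-3p counts (y axis) in each library of the 4 groups (x axis), with exact 95% intervals. Untreated parental replicate 3 is lowest at 1.25% and treated CSC-like replicate 1 highest at 50%, on 4 counts.

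The other intronic miRNAs were taken from the annotation. Of the 153 miRNAs 149 could be placed at a locus, and 60 besides the members had every locus in an intron of a coding gene on the same strand. In parental exosomes 10 of them were tested after cisplatin and 0 passed in either direction, with a median log2 fold change of -0.20 beside -0.27 for all 37 tested miRNAs. In CSC-like exosomes 4 were tested and 0 passed, with a median of -0.28 beside -0.15 for all 29. In treated CSC-like over treated parental exosomes 10 were tested and 0 passed (median -0.17 beside 0.08 for 42), and in untreated CSC-like over untreated parental exosomes 6 were tested and 0 passed (median -0.72 beside -0.32 for 30). Their summed share was 7.22% ± 0.00770 (SD, n = 2) in treated and 8.11% ± 2.25 (SD, n = 3) in untreated CSC-like exosomes, and 9.08% ± 2.21 in treated and 9.47% ± 1.91 in untreated parental ones (SD, n = 3 each).

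The 4 with the most counts were let-7g-5p (host WDR82), miR-27b-3p (C9orf3), miR-99b-5p (SPACA6) and miR-26a-5p (CTDSP2 and CTDSPL). In parental exosomes miR-99b-5p, of a family that targets mTOR, stood at -1.64 (adjusted p = 0.266, SE 0.85) and miR-27b-3p at 0.31 (adjusted p = 0.843, SE 0.86) in log2 fold change after cisplatin by edgeR. miR-26a-5p averaged 0.501% ± 0.379 (SD, n = 2) in treated and 0.843% ± 0.198 (SD, n = 3) in untreated CSC-like exosomes. Both arms of 1 intronic hairpin in the CSC-like table and of 6 in the parental table were listed.

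The miRNAs most like the members over the 11 samples were found by Spearman's rho of shares among 44 miRNAs with at least 60 counts, as a description. For miR-378a-3p they were miR-7-5p (rho 0.64), miR-148b-3p (0.62) and miR-182-5p (0.52). For miR-151a-3p they were miR-10a-5p (0.74), miR-99b-5p (0.65) and miR-106b-3p (0.65). The 11 points share library depth and group, and shares of 1 library constrain each other. Between miR-378a-3p and miR-151a-3p rho was -0.05.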

How the data were processed

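Small RNA of exosomes was isolated with exoRNeasy and made into NEBNext small RNA libraries, per the labels' protocols. Trimming by cutadapt and quality checks by FastQC are credited to the submitters' processing notes. The sources used here do not give the aligner, allowed mismatches, build or miRNA release. Per the file headers, the authors deposited untransformed read counts per mature miRNA and replicate. The deposited group mean, a signal of 3 averaged counts, was not used. The deposited score is the authors' signed fold of weighted proportions, and the deposited p-value is from Baggerley's test, unadjusted. In both files 1 line was not analysed here.

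Library size was the sum of counts listed for a library's own population, also in comparisons between populations. The count test was edgeR 4.0.16 under R 4.3.3 with limma 3.58.1, using filterByExpr (minimum count 10, total 15), TMM, quasi-likelihood test, Benjamini-Hochberg over all tested miRNAs, threshold 0.05. SEs come from the fold change and F statistic. DESeq2 1.42.0, other scalings, other filters, a replicate block and leaving out each library were alternatives. Shares have exact (Clopper-Pearson) 95% intervals, which like the floors cover counting error only. Permutation tests covered every listed miRNA. Scripts were tested on simulated data. Named were every listed arm of the 3 hairpins, relatives that could share reads, the 4 other intronic miRNAs with the most counts and the 3 miRNAs most like each member. Members and lists were chosen with earlier results of these data known.

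Deviations of same-numbered libraries of the treated CSC-like and treated parental groups correlated weakly (0.256, 0.127 and 0.107 over 42 miRNAs). It was the only comparison where every pair exceeded 0.1. Only replicate 1 correlated best with its own number there, and the labels give no pairing. Treated and untreated parental libraries correlated more strongly for replicates 1 and 2 (0.397 and 0.413 over 37 miRNAs, each best with its own number). Replicate 3 did not (0.00186).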

Additional observations from a re-analysis of the deposited data

How the results depend on the processing

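Over all alternatives run, 1 changed a call among the members: leaving out a library gave 0 to 1 called members in parental exosomes after cisplatin, and miR-378a-3p was the one called. Its log2 fold change lay between 0.59 and 2.07. The other 4 comparisons had 0 called members throughout. Treated CSC-like replicates 2 and 3, which agreed within sampling noise, were also kept separate. The exact permutation p was then 0.1, the smallest possible, for miR-151a-3p in CSC-like exosomes after cisplatin. It was also 0.1 for miR-378a-3p and miR-151a-3p in treated CSC-like over treated parental exosomes. There the edgeR log2 fold changes were -0.99 (adjusted p = 0.434) and -1.66 (adjusted p = 0.339). In parental exosomes the log2 fold change of miR-151a-3p (-0.03) turned to 0.35 with library totals, 0.089 with DESeq2 size factors, 0.090 in DESeq2, 0.33 with at least 15 counts as the filter and 0.22 with no filter, and lay between -0.79 and 0.40 with 1 library left out. Its difference in mean share lay between -0.466 and 0.984 points over leave-outs. With the most abundant miRNA of each library left out of the total it was 0.0476 points, and that of untreated CSC-like minus untreated parental exosomes was -1.46 points, against -0.541 with it. The interaction of miR-151a-3p lay between -1.11 and 0.39 with 1 library left out and was -1.21 with library totals. For miR-378a-3p in CSC-like exosomes the fitted value was -0.041 with at least 15 counts as the filter. miR-140-3p had 1 count in each of the CSC-like groups and in untreated parental exosomes, so its fitted values without the filter give no fold there and only show how far they move: leave-outs gave -1.66 to 2.37 in CSC-like exosomes after cisplatin (difference in mean share -0.0218 to 0.0133 points), -1.83 to 2.12 in untreated CSC-like over untreated parental exosomes (a log2 fold change of -0.0072 without untreated parental replicate 3, and a difference in mean share of -0.00945 to 0.0233 points) and -4.23 to 0.74 in the interaction. The cause was not tested.

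With the replicate number as a block and all libraries separate, miR-378a-3p had a log2 fold change of 1.60 (adjusted p = 0.487, edgeR) and miR-151a-3p of -0.12 in parental exosomes, and miR-151a-3p of -0.54 in CSC-like exosomes. In treated CSC-like over treated parental exosomes the block gave -1.36 for miR-151a-3p and -0.90 for miR-378a-3p, and it changed no call. Same-numbered libraries correlated only weakly there (0.107 to 0.256), and the labels give no pairing. Replicates 2 and 3 of that comparison did not correlate best with their own number. In the other comparisons at least 1 same-numbered pair correlated at 0.00186 or below, and again not every library correlated best with its own number. The highest values were those of treated and untreated parental libraries, 0.397 for replicate 1 and 0.413 for replicate 2. Both correlated best with their own number, while replicate 3 (0.00186) did not. Where a leave-out left 1 sample in a group, that sample was assumed to vary like the others. No alternative of the arm ratio could be computed. Depth limits miR-140-3p most, with 12 counts in all.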
